A study of Mus musculus with 4 samples.

Results

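The Hox genes are the 39 genes, of 32285 in the feature tables, whose symbol is Hox followed by the letter of a locus (a, b, c or d) and a number, with antisense transcripts left out. They were followed across 12539 neurons in 134 clusters and across the 14 cell types that the authors annotated among 39461 kept nuclei of the posterior hindbrain, a piece of tissue that holds the area postrema and the nucleus of the solitary tract. Nuclei were profiled in 4 libraries made with the 10x Genomics 3′ kit. In it a unique molecular identifier (UMI) marks each captured RNA molecule. There were 2 groups of C57BL/6 mice, both sexes, 12 to 20 weeks old, with 2 libraries each. All mice received clozapine N-oxide (CNO) at 3 mg per kg, and tissue was taken 1 h later. Mice of both groups carried a silenced allele of each designer receptor (hM3DGq fl/- and hM4DGi fl/-). Control mice, labelled WT, were AgRP-IRES-Cre-/- and POMC-Dre-/-, and so expressed neither receptor. In AgRP-Gq;POMC-Gi mice (AgRP-IRES-Cre+/- and POMC-Dre+/-), AgRP-IRES-Cre turns on the activating receptor hM3DGq in AgRP neurons and POMC-Dre turns on the inhibiting receptor hM4DGi in POMC neurons, so CNO acts on both at once. Samples of a condition were pooled, and which mice went into which library is not stated, so every p-value below measures the spread between libraries, which may be technical.

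Hox genes encode transcription factors that bind DNA through a homeodomain. They lie in 4 loci, and genes of different loci that descend from the same ancestral gene share a number, the paralogue group, from 1 to 13. In the embryo the order of the genes along a locus matches the order of their expression borders along the body axis. Genes of low groups reach forward into the hindbrain segments, and genes of high groups are known for the spinal cord, limbs and tail. Pbx and Meis proteins bind DNA together with them, retinoic acid turns many of them on, and Polycomb proteins keep them silent where they are not used.

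In GENCODE M21 on GRCm38, the Hoxa locus lies at chr6:52155590-52260880 on the minus strand (11 genes). The Hoxb locus lies at chr11:96194316-96368256 (10 genes), the Hoxc locus at chr15:102921103-103036852 (9 genes) and the Hoxd locus at chr2:74668310-74765142 (9 genes), all on the plus strand. The annotated body of *Hoxa3* contains *Hoxa4*, *Hoxa5* and *Hoxa6*, that of *Hoxd3* contains *Hoxd4*, and that of *Hoxc5* contains *Hoxc6*, *Hoxc8* and *Hoxc9*, each on the same strand. Reads in the shared stretches can be split between these genes in counting, so the values of *Hoxa3* to *Hoxa6*, *Hoxd3*, *Hoxd4* and *Hoxc5* to *Hoxc10* are uncertain to that extent.

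In neurons, 10 members reached a share of 5% of nuclei with a UMI, and most values below are theirs. To show how alike these genes are, their homeoboxes, the 180 bases that encode the homeodomain, were compared in GENCODE M21 transcripts. Members of the same paralogue group shared a median of 83.9% of bases (77.2 to 93.9% over 7 pairs). Members of the same locus shared 70.8% (12 pairs) and all other pairs 71.9% (26 pairs). By these medians, a gene was closer in its homeobox to its partners on other chromosomes than to its neighbours.

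RefSeq promoters on GRCm38.p6, 250 bases before the start of a transcript, were at hand for 22 of the 39 members. They were searched on both strands for AGGTCA, the core that retinoic acid receptors bind in pairs. It was in 6 of the 24 promoters of these members (25%) and in 14.0% of all 32851 promoters. Among the 10 members, 6 had a promoter and 4 of these held the core, namely *Hoxb4*, *Hoxc4*, *Hoxd4* and *Hoxd3*. The 3 of paralogue group 4 are shown, with the match, read here as TGACCT, in capitals.
Hoxb4 (chr11:96318017-96318266, + strand): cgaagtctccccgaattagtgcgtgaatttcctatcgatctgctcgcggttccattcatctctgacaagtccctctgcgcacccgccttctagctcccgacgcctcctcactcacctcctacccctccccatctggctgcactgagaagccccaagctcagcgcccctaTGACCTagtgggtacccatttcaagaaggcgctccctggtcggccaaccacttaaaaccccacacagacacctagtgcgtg
Hoxc4 (chr15:103034145-103034394, + strand): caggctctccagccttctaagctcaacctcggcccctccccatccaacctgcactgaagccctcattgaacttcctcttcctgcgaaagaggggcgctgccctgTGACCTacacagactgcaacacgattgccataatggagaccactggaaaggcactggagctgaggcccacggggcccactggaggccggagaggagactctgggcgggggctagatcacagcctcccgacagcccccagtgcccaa
Hoxd4 (chr2:74721728-74721977, + strand): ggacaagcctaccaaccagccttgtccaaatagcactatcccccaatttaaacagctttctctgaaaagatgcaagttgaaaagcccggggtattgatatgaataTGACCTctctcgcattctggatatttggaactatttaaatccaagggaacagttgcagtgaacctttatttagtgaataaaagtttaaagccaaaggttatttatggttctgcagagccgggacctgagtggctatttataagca
A match is a description of these letters only, and no binding was measured.

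Library totals ranged from 48904976 to 53089402 UMIs over 9723 to 10051 nuclei, and neurons numbered 2470 to 3696 per library with 26860073 to 35583732 UMIs. Levels are CPM, that is, the UMIs of a gene per 1000000 UMIs of a type or cluster, with nuclei summed within a library. They are given as mean ± SD of the 4 libraries. Among kept nuclei 168 barcode sequences occurred in more than 1 library (0.851% of nuclei). The neuronal label fits its markers, since *Syt1* stood at 1348 CPM in neurons and 26.5 CPM in oligodendrocytes, and the oligodendrocyte gene *Mog* at 8.93 and 1105 CPM.

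One library stood apart for Hox genes. The 39 members together made 239 and 232 CPM in neurons of control replicates 1 and 2, 216 CPM in AgRP-Gq;POMC-Gi replicate 1 and 342 CPM in AgRP-Gq;POMC-Gi replicate 2. In the same order, oligodendrocytes had 54.0, 51.1, 54.0 and 83.9 CPM, and astrocytes 177, 173, 196 and 307 CPM. In all 3 types replicate 2 of the AgRP-Gq;POMC-Gi group was highest and the other 3 libraries lay close together. In neurons it was the highest library for all 10 of these members, against 28.8% of all 12115 genes tested. It was also highest for 11 of 11 members with a UMI in at least 1% of astrocytes (35.7% of genes) and for 4 of 6 in oligodendrocytes (37.2%). It was highest for 7 of 11 in ependymal cells (24.9%) and for 2 of 12 in tanycyte-like cells (21%). In the Tmem119 immune cells, a type that arises outside the neural tube, it was highest for 4 of 4 (27.7%). The same library had *Xist* at 16.2 CPM in neurons, against 319 to 541 CPM in the others, and *Ddx3y*, a gene of the Y chromosome, at 39.3 CPM against 13.4 to 18.2 CPM. The part of sex in the Hox values was not tested. Weighting all 120 clusters with at least 5 nuclei per library equally, the summed level was 267, 266, 237 and 325 CPM, so the library was highest in the sum with every cluster given the same weight too. For single members this held for 8 of 10. *Hoxb3*, at 55.2, 54.1, 50.5 and 53.7 CPM, and *Hoxd4*, at 14.8, 13, 10.6 and 14.6 CPM, were then highest in control replicate 1. It had the highest summed level in 79 of the 120 clusters (65.8%). The main results below are therefore given per library or also without it.

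Hox UMIs in neurons came mostly from groups 2 to 6, and almost none from beyond group 8. A Hox UMI was found in 80.6% of neurons (exact 95% interval 79.9 to 81.3%), at a summed level of 257 ± 57.5 CPM. Of the 32539 Hox UMIs in neurons, 40.5% came from group 3, 33.2% from group 4, 13.3% from group 5, 7.45% from group 2 and 3.80% from group 6. Groups 7 and 8 gave 0.590% and 0.894%. By locus, Hoxb gave 47.8%, Hoxa 19.7%, Hoxc 17.4% and Hoxd 15.1%. A neuron held UMIs of no member in 19.4% of cases, of 1 member in 24.6%, of 2 in 22.3% and of at least 3 in 33.7%, with a maximum of 11. AgRP-Gq;POMC-Gi replicate 2 had at least 3 members in 46.1% of neurons, and the other libraries in 25.2 to 34.0%.

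In the paragraphs on members, libraries are always in the order control 1, control 2, AgRP-Gq;POMC-Gi 1 and AgRP-Gq;POMC-Gi 2, and values are CPM in neurons. Group 2 acts in hindbrain segments, and *Hoxa2* is required for the identity of the second pharyngeal arch. *Hoxb2* stood at 14.5, 14.2, 13.4 and 21.3 CPM (15.8 ± 3.64, 14.0% of neurons with a UMI). *Hoxa2* was below the 5% limit, with 416 UMIs in 3.11% of neurons. Only the fourth library lay away from the rest for *Hoxb2*.

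Group 3 is known for the caudal hindbrain and for derivatives of the third arch. *Hoxa3* stood at 28.8, 28.4, 23.3 and 37.0 CPM (29.4 ± 5.68, 23.0% of neurons). *Hoxb3* stood at 49.4, 46.5, 45.6 and 56.4 CPM (49.5 ± 4.92, 35.1% of neurons). *Hoxd3* stood at 28.0, 26.6, 21.9 and 29.0 CPM (26.4 ± 3.13, 21.0% of neurons). *Hoxb3* and *Hoxd3* were the steadiest across libraries, and in all 3 genes AgRP-Gq;POMC-Gi replicate 1 was lowest.

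Group 4 is a set of genes with borders in the caudal hindbrain. *Hoxb4* stood at 23.3, 21.7, 22.8 and 40.2 CPM (27.0 ± 8.83, 21.1% of neurons). *Hoxc4* stood at 35.2, 37.4, 37.4 and 56.7 CPM (41.7 ± 10.1, 29.2% of neurons). *Hoxd4* stood at 13.7, 12.4, 9.39 and 14.7 CPM (12.6 ± 2.32, 11.3% of neurons). For *Hoxb4* and *Hoxc4* the first 3 libraries nearly coincided and the fourth was far above, whereas for *Hoxd4* AgRP-Gq;POMC-Gi replicate 1 lay below the other 3. *Hoxa4* had 492 UMIs in 3.67% of neurons.

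Groups 5 and 6 have borders further back, around the junction with the spinal cord, and genes of group 5 are also needed by the motor neurons of the diaphragm. *Hoxa5* stood at 9.72, 12.3, 10.2 and 19.8 CPM (13 ± 4.67, 10.5% of neurons). *Hoxb5* stood at 14.6, 15.8, 13.7 and 29.8 CPM (18.5 ± 7.60, 14.9% of neurons). *Hoxb6* stood at 7.93, 4.81, 6.35 and 15.4 CPM (8.61 ± 4.68, 7.27% of neurons). The fourth library was the highest for all 3 genes. These values were set beside those of Tmem119 immune cells, which arise outside the neural tube. There *Hoxa5* stood at 3.84, 11.4, 7.08 and 17.5 CPM and *Hoxb5* at 13.4, 9.52, 7.08 and 17.5 CPM, and both overlap the libraries of neurons. Within each library neurons were above these cells for both genes. The gap was as small as 12.3 against 11.4 CPM for *Hoxa5* and 14.6 against 13.4 CPM for *Hoxb5*. Group 5 as a whole gave 42 UMIs in these cells, so their values rest on few UMIs. Group 5 made 37.8% of the Hox UMIs of these cells, against 13.3% in neurons. Group 3 made 13.5%, against 40.5% in neurons. Whether the Hox UMIs of these cells are background was not tested. Thinned to 800 UMIs, 1.29% of neurons and 0.826% of these cells had a UMI of *Hoxa5*, and 1.85 and 0.722% had one of *Hoxb5*. Given overlap across libraries and small gaps within some, *Hoxa5* and *Hoxb5* levels over all neurons are not read as expression on their own. The other 8 of the 10 members were higher in every neuron library than in any library of Tmem119 immune cells, where *Hoxb4* came to 10.7 ± 5.23 CPM. *Hoxc5* had 291 UMIs, *Hoxc6* 66 and *Hoxa6* 59, each in under 5% of neurons.

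**Figure D1:**
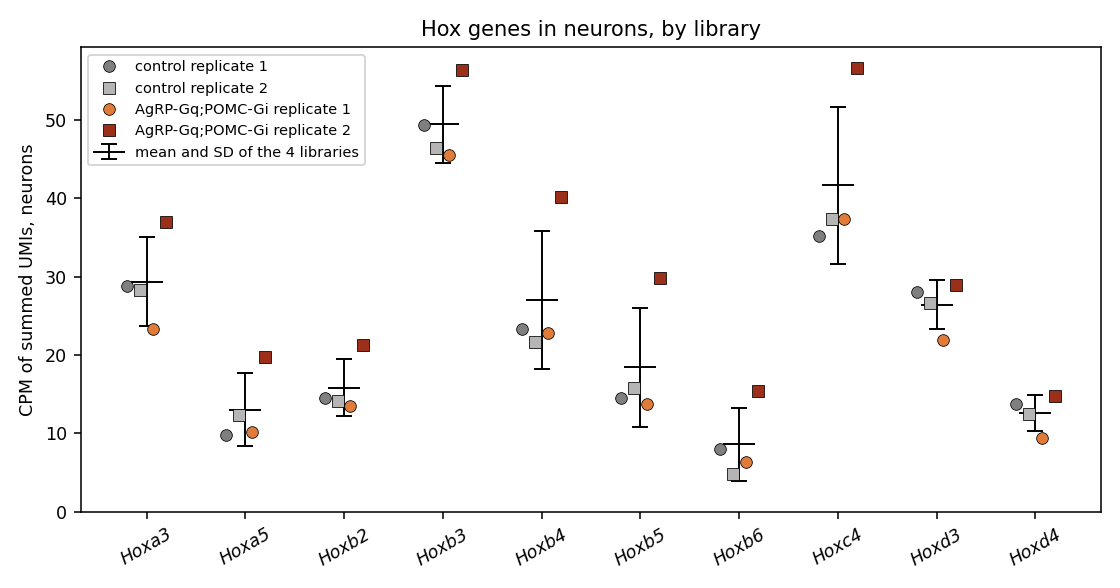
CPM of the 10 most often detected Hox genes in neurons, on a linear axis from 0, with 1 symbol per library and the mean and SD of the 4 libraries as a bar. AgRP-Gq;POMC-Gi replicate 2 is the highest symbol for every gene, from 14.7 CPM for *Hoxd4* to 56.7 CPM for *Hoxc4*.

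The remaining members were at the edge of detection or beyond. *Hoxb8* had 271 UMIs and *Hoxb7* 136 in neurons, *Hoxa7* 56 and *Hoxd1* 32. *Hoxc8*, *Hoxd13*, *Hoxd8*, *Hoxb9* and *Hoxa9* had 13, 10, 7, 6 and 5 UMIs, and *Hoxb1*, *Hoxc9* and *Hoxd9* had 1 each. No UMI in any kept nucleus came from 11 members. These are *Hoxa10*, *Hoxa11*, *Hoxa13*, *Hoxb13*, *Hoxc10*, *Hoxc11*, *Hoxc12*, *Hoxc13*, *Hoxd10*, *Hoxd11* and *Hoxd12*, all of groups 10 to 13, and 0 of 12539 neurons allows a share of nuclei with a UMI of up to 0.0239%. *Hoxd13*, with 10 UMIs, was the only member of these groups that was seen at all, and 3 of its UMIs fell in cluster 140: Fgf10/Cpne4.

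Longer genes may yield more reads in nuclei, which was not tested here, so levels are also given per length. Per kilobase of gene body the level in neurons was highest for *Hoxb4* (8.00 ± 2.62 CPM per kb), followed by *Hoxb5* (6.63 ± 2.73), *Hoxa5* (4.59), *Hoxb2* (4.54), *Hoxc4* (2.33) and *Hoxb3* (2.01). On this scale *Hoxb4* was above *Hoxb5* in each of the 4 libraries. No background was removed, and since *Hoxa5* and *Hoxb5* overlap the Tmem119 immune cells, their places on either scale are not read as an order of expression. Per kilobase of exon the level was highest for *Hoxc4* (16.2 CPM per kb), followed by *Hoxb3* (11.6), *Hoxb4* (10.5), *Hoxa5* (6.93) and *Hoxb5* (6.63). *Hoxc4* and *Hoxb3* thus led on the exon scale and not on the body scale, and *Hoxb4* was among the first 3 on both.

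Across cell types, tanycyte-like cells had the highest summed Hox level in every library. The sum was 413 ± 125 CPM in tanycyte-like cells, 257 ± 57.5 in neurons, 213 ± 63.02 in astrocytes, 203 ± 57.6 in ependymal cells and 162 ± 38.2 in mural cells. It was 94.8 ± 27.6 CPM in fibroblasts, 92.5 ± 55.7 in endothelial cells, 76.6 ± 24.5 in oligodendrocyte precursors, 60.8 ± 15.5 in oligodendrocytes and 58.5 ± 15.5 in the Tmem119 immune cells. Tmem119 marks microglia, which arise outside the neural tube. Choroid plexus is not compared, since its libraries held 2 to 99 Hox UMIs from very unequal numbers of nuclei. Neurons were above astrocytes in each of the 4 libraries, while ependymal cells, at 152, 164, 218 and 278 CPM, were above neurons in AgRP-Gq;POMC-Gi replicate 1 and below them in the others.
In tanycyte-like cells, which line the ventricle, *Hoxc4* stood at 133, 74.9, 38.9 and 45.99 CPM and *Hoxb5* at 20.5, 125, 24.3 and 39.9 CPM. These values scatter widely, and they rest on 202 nuclei.

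Thinned to 800 UMIs, so that depth is equal, 19.8% of neurons, 16.1% of astrocytes, 4.70% of oligodendrocytes and 4.13% of Tmem119 immune cells had a Hox UMI. Without thinning the shares were 80.6, 48.3, 14.1 and 9.80% at median depths of 8704, 3375.5, 2460 and 1871 UMIs. Oligodendrocytes were thus close to a type of other origin, and their level is not read as expression as a whole. For some members the libraries of these types did not overlap. *Hoxa3* spanned 10.2 to 18.3 CPM in oligodendrocytes and 0 to 7.67 CPM in Tmem119 immune cells. *Hoxd1* stood at 2.20 ± 1.17 CPM in oligodendrocytes, 0 in Tmem119 immune cells, 0.0634 in astrocytes and 0.261 in neurons. The ratio of summed Hox CPM of neurons to oligodendrocytes was 4.43, 4.53, 3.99 and 4.08 in the 4 libraries (4.26 ± 0.264). All 10 members had a higher mean in neurons than in oligodendrocytes.

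The loci made up different shares of Hox UMIs, with no background removed. Hoxb gave 47.8% in neurons and 32.8% in astrocytes. Hoxa gave 19.7 and 31.9% in the same order, Hoxc 17.4 and 19.4%, and Hoxd 15.1 and 15.9%. *Hoxa3* stood at 39.9 ± 7.83 CPM in astrocytes and 29.4 ± 5.68 CPM in neurons, whereas *Hoxb3* stood at 23.1 ± 0.927 and 49.5 ± 4.92 CPM. *Hoxa3* was higher and *Hoxb3* lower in astrocytes than in neurons in every library.

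**Figure D2:**
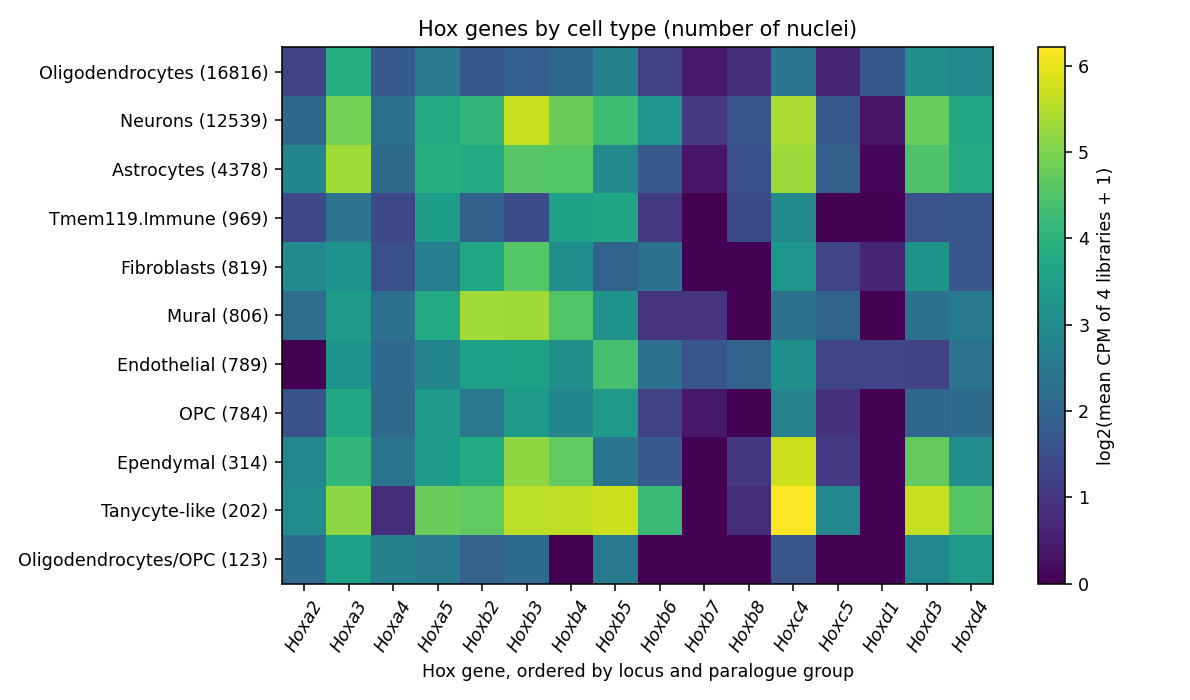
Mean CPM of Hox genes over the 4 libraries, as log2(CPM + 1), in the 11 of 14 cell types that have at least 100 nuclei and at least 5 in each library. Tanycyte-like cells have the brightest row (*Hoxc4* at 73.2 CPM), and *Hoxb3* is brighter in neurons (49.5 CPM) than in oligodendrocytes (2.59 CPM).

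Among neuronal clusters, a member was called detected where at least 5% of nuclei had a UMI, the summed level was at least 10 CPM and at least 3 libraries had a UMI. By this rule 16 members were detected somewhere, in 960 pairs of gene and cluster. At least 1 member was detected in 130 of 134 clusters, with a median of 7 members per cluster and a maximum of 12. Without AgRP-Gq;POMC-Gi replicate 2 there were 928 pairs. The limit of 10 CPM lies near the level of *Hoxa5*, *Hoxb4* and *Hoxb5* in Tmem119 immune cells. In an alternative chosen after seeing the data, each member also had to reach its highest library of those cells (17.5 CPM for *Hoxa5* and *Hoxb5*, 15.3 CPM for *Hoxb4*), which left 905 pairs. Clusters are built from expression, so differences between them are descriptions. *Hoxb3* was detected in 130 clusters, *Hoxc4* in 120, *Hoxa3* in 119, *Hoxd3* in 114, *Hoxb4* in 81.3% of clusters, *Hoxb2* in 93, *Hoxb5* in 80, *Hoxd4* in 74, *Hoxa5* in 52, *Hoxb6* in 44 and *Hoxb8* in 10. *Hoxa2*, *Hoxa4* and *Hoxc5* were detected in 4 each, *Hoxb7* in 2 and *Hoxa7* in 1. With the floor of the immune cells, *Hoxb4* was detected in 89 clusters, *Hoxb5* in 62, *Hoxa5* in 36 and *Hoxc4* in 119, and the counts of the other 12 members were the same. With the libraries pooled, the summed level per cluster ranged from 26.6 to 741 CPM, with a median of 259 CPM.

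Detected sets of the more abundant members were largely nested. For the Hoxb genes named next the sets followed paralogue group, but levels over all neurons fell in the same order. They were 49.5 CPM for *Hoxb3*, 27.0 for *Hoxb4*, 18.5 for *Hoxb5*, 8.61 for *Hoxb6* and 2.07 for *Hoxb8*. With the same limit for all members, nesting by group cannot be told apart from nesting by level. Every cluster with *Hoxb4* also had *Hoxb3*, 79 of 80 with *Hoxb5* had *Hoxb4*, 43 of 44 with *Hoxb6* had *Hoxb5*, and 10 of 10 with *Hoxb8* had *Hoxb6*. On the other loci, 51 of 52 clusters with *Hoxa5* had *Hoxa3*, and 71 of 74 with *Hoxd4* had *Hoxd3*. In both pairs the first gene lies within the annotated body of the second, and reads may be split between them. Across loci, 50 of 52 clusters with *Hoxa5* had *Hoxb5*. Since *Hoxb3* was in nearly every cluster, the inclusion in *Hoxb3* says little, while *Hoxb5* was in 59.7% of clusters and *Hoxb6* in 32.8%. Other members broke the order of groups. *Hoxa4* was detected in 3 of the 52 clusters with *Hoxa5*, *Hoxb7* in 2 of the 10 with *Hoxb8*, and *Hoxb2* in 36 of the 44 with *Hoxb6*. Over all neurons *Hoxa4* (3.90 CPM) and *Hoxb7* (1.05 CPM) were below these partners, and *Hoxb2* (15.8 CPM) was above its own. With the floor of the immune cells, 60 of 62 clusters with *Hoxb5* had *Hoxb4*, 41 of 44 with *Hoxb6* had *Hoxb5*, and 36 of 36 with *Hoxa5* had *Hoxa3*, while 32 of 36 with *Hoxa5* had *Hoxb5*.

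**Figure D3:**
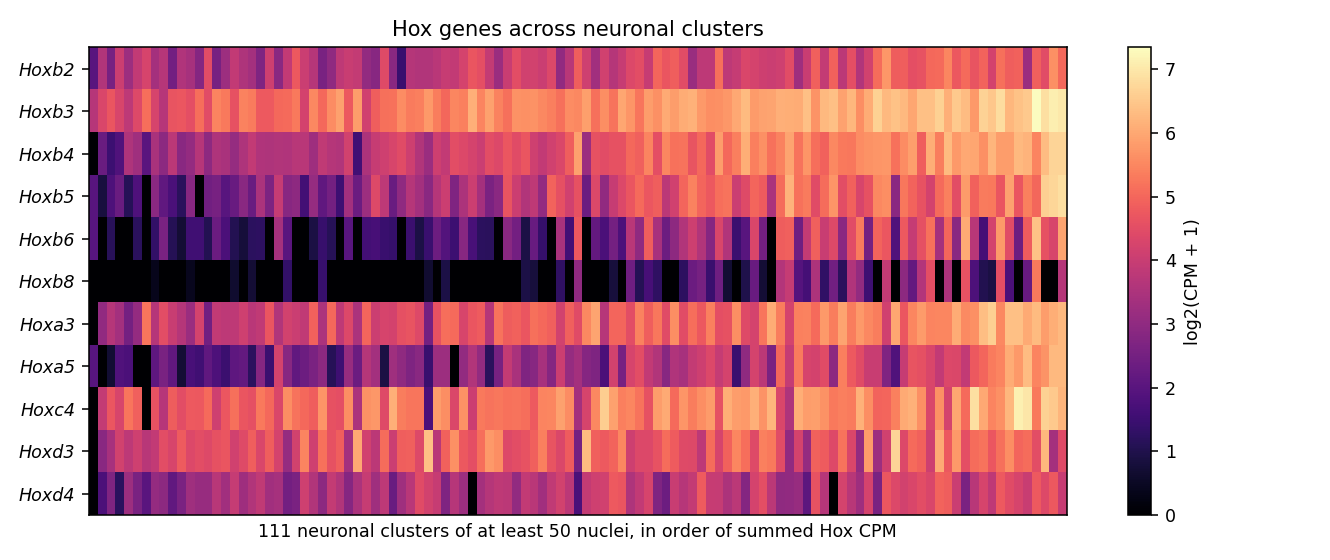
Pooled CPM of Hox genes, as log2(CPM + 1), with 11 genes in rows and the 111 neuronal clusters of at least 50 nuclei in columns, from the lowest to the highest summed Hox level. *Hoxb3* is bright almost throughout, while *Hoxb6* and *Hoxb8*, detected in 44 and 10 of 134 clusters, are dark in most columns of the left side.

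Over 111 clusters with at least 50 nuclei, Pearson's r of log2(CPM + 1) was 0.82 between *Hoxa5* and *Hoxb5*, 0.81 between *Hoxb4* and *Hoxb5* and 0.78 between *Hoxb3* and *Hoxb4*. It was lowest between *Hoxb6* and *Hoxd3*, at -0.13. The median r was 0.622 for the 12 pairs of the same locus, 0.427 for the 7 pairs of the same group and 0.376 for the 26 other pairs. Of the 7 pairs of the same group, 4 hold *Hoxd3* or *Hoxd4*, while the locus pairs are mostly of Hoxb genes, so the sets differ in which genes they hold. The points share libraries, and the summed level had an r of -0.236 with the median UMIs per nucleus. Between 2 libraries, over 28 clusters with at least 20 nuclei in each, r of the summed level was 0.845 in the median (0.811 to 0.933). For single members the median ran from 0.161 for *Hoxd4* to 0.696 for *Hoxb5*, so cluster patterns of *Hoxd4* and *Hoxd3* (0.243) are poorly determined.

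A gene of group 8 was detected in 10 clusters, and 8 of them were GABAergic by *Slc32a1* against *Slc17a6*, as were 46 of all 134 clusters. The GABAergic ones were 64: Ebf3/Pax2, 46: Col18a1/Gpc3, 31: Cdh3/Nkain3, 87: Col25a1/Nox4, 133: Nxph2/Nox4, 162: Chrdl1/Kcnh8, 125: Otof/Stac and 144: Nox4/Kcnmb2. The glutamatergic ones were 117: Ebf2/Nmu and 159: Casr/Slc6a2. Cluster 176: Dkk2/Col25a1 reached group 7 with *Hoxa7*. *Hoxb8* reached 33.7, 31.6, 25.0 and 62.5 CPM in cluster 144 (38.2 ± 16.6, 18.97% of 58 nuclei) and 21.1 ± 8.67 CPM in cluster 133. The same cluster 144 had the highest *Hoxb6* (78.5 ± 36.0 CPM) and the highest *Hoxb3* (159 ± 51.7 CPM). Groups 6 and above gave 21.7% of its 254 Hox UMIs, against a median of 2.53% over 111 clusters. Cluster 144 was named for its high *Hoxb8* and *Hoxb6*, so a high share follows from that choice. The share was also 21.7% in cluster 117 and 19.7% in cluster 133.

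Other members peaked elsewhere, in the mean of the 4 libraries unless stated. *Hoxb4* and *Hoxb5* were highest in cluster 154: Olfr78/Calcr, at 99.4 ± 9.68 and 131 ± 61.8 CPM. With the libraries pooled *Hoxb5* was highest in cluster 159, at 117 CPM against 105 CPM in cluster 154. For *Hoxa3* the order also depended on the measure. It stood in cluster 159 at 359, 219, 46.8 and 57.4 CPM, values that rest on 3 to 10 UMIs per library, and in cluster 81: Gbx1/Fgf10 at 86.3, 99.7, 81.5 and 115 CPM. Cluster 159 had the higher mean and cluster 81 the higher pooled level (75.8 and 96.97 CPM). *Hoxa5* was highest in cluster 53: Gal/Dkk2 (84.5 ± 42.4 CPM) and *Hoxb2* in cluster 146: Rxfp1/Ebf2 (57.0 ± 27.8 CPM). *Hoxc4* was highest in clusters 163: Adamts18/Col25a1 (136 CPM), 53 (130 CPM) and 111: Cartpt/Postn (129 CPM), and with the libraries pooled cluster 111 was first at 140 CPM. *Hoxd3* was highest in cluster 86: Tfap2b/Col25a1, at 104, 133, 98.0 and 85.6 CPM (105 ± 20.1), where all 4 libraries were above the 26.4 CPM of all neurons. Cluster 72: Ano2/Foxp2, named after its values were seen, had only *Hoxb3*, *Hoxd3* and *Hoxd4* detected. *Hoxd3* and *Hoxd4* made 50.1% of its 337 Hox UMIs, and *Hoxc4* made 1.19%.

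Clusters that the study discusses differed in their Hox sets. Cluster 97: Gfral/Sctr, which expresses the receptor for the hormone GDF15, had 11 members detected and a sum of 414, 483, 464 and 455 CPM. It had the highest *Hoxc5* of all clusters (18.2 ± 6.69 CPM) and *Hoxc4* at 107 ± 26.4 CPM. Cluster 63: Ebf2/Th had 10 members and a sum of 406 ± 39.6 CPM, with *Hoxb4* at 83.0 ± 17.3 CPM but *Hoxc4* at only 19.2 ± 12.5 CPM. Both had *Hoxb6*. Cluster 82: Tal1/Nell1 had 8 members up to group 4 and a sum of 230 ± 72.2 CPM. The Gcg/Reln cluster, which holds the neurons that make proglucagon, had 7 members up to *Hoxb5* and a sum of 202 ± 77.6 CPM, and *Hoxb4* stood there at 13.4 ± 5.37 CPM. *Hoxb6* had 1 UMI in cluster 82 and 3 in the Gcg/Reln cluster.

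At the other end, 4 clusters had no detected member. Cluster 104: Gabra6/Fat2 had 9 Hox UMIs in 94 nuclei (9.57% of nuclei with any) and had *Gabra6*, *Fat2* and *Cbln3*, markers of cerebellar granule cells, at 650, 148 and 106 CPM. Cluster 182: Samd3/Cnpy1 had 3 Hox UMIs in 27 nuclei, with *Fat2* at 126 CPM and the midbrain and cerebellar gene *En2* at 38.8 CPM. Clusters 177: Foxp2/Ano2 and 179: Vmn1r207-ps/Pde11a had 27 and 20 Hox UMIs, all from control replicate 1, so they miss the rule by its condition on libraries. Cluster 157: Cnpy1/Adamts18 had members of groups 2 and 3 only, namely *Hoxa3*, *Hoxb2*, *Hoxb3* and *Hoxd3*. Of the Purkinje cell markers, cluster 157 had *Car8* at 207 CPM and *Ppp1r17* at 15.3 CPM and no *Pcp2*. These 5 clusters were singled out after their values were seen.

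When each cluster was placed by its highest detected group, 84 clusters with 8275 neurons ended at group 4 or 5 and 44 clusters with 3973 neurons at groups 6 to 8. Clusters ending at group 4 or 5 held 68.0, 73.1, 70.9 and 54.3% of the neurons of the 4 libraries, and those ending at groups 6 to 8 held 26.8, 24.2, 27.4 and 44.98%. The 4 clusters with none held 3.68, 1.68, 1.14 and 0.302%, and the 2 with groups 2 and 3 only held 1.46, 1.06, 0.595 and 0.385%. No cluster ended at groups 9 to 13. The shares of all these classes were the same with the floor of the immune cells. At a stricter threshold and with nuclei thinned, fewer clusters ended at groups 6 to 8, as given in the last section. The first 3 libraries were alike in the large classes, and AgRP-Gq;POMC-Gi replicate 2 had a larger share in groups 6 to 8. The classes were called from the 4 libraries together, so the Hox UMIs of this library helped to place clusters in them. Its share in classes called without it is not given here, so the size of this shift is not read as a finding. When detection and classes were called anew from the other 3 libraries, the mean shares of both large classes were 73.8 and 22.1%. Within classes, the summed level was 204, 193, 171 and 285 CPM for groups 4 and 5, and 350, 375, 360 and 424 CPM for groups 6 to 8. The same library was highest within each class as well. Clusters that ended at groups 6 to 8 were defined by Hox UMIs, so their higher sum is no finding.

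**Figure D4:**
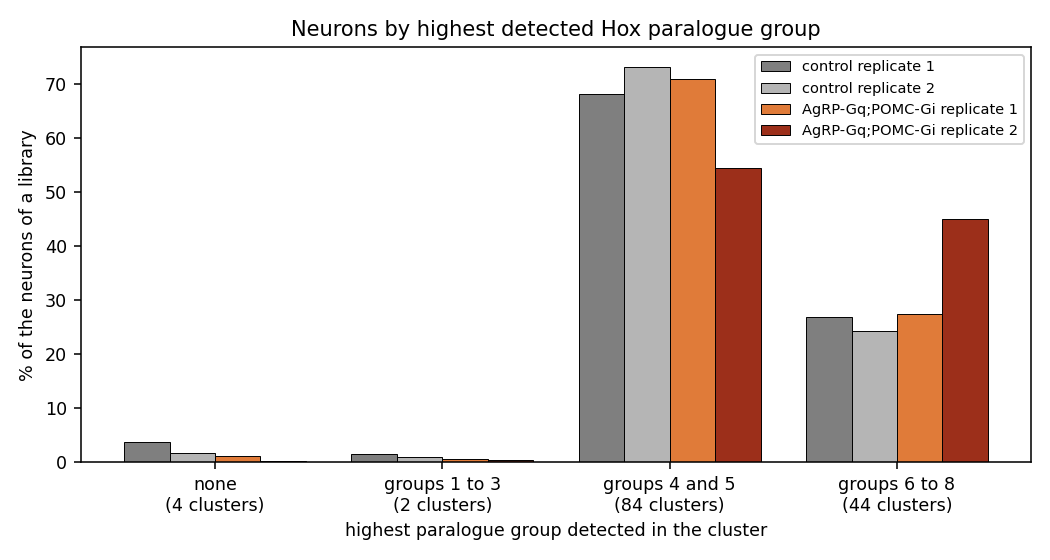
Share of the neurons of each library, in percent from 0, in clusters grouped by the highest paralogue group detected, with the 4 libraries as bars. AgRP-Gq;POMC-Gi replicate 2 has 44.98% of neurons in groups 6 to 8 and the other 3 libraries 24.2 to 27.4%. Classes were called from the 4 libraries together, this one included.

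With the libraries pooled, the median summed level was 249 CPM in 69 glutamatergic clusters (68.8 to 741), 292 CPM in 46 GABAergic clusters (139 to 613), 164 CPM in 7 mixed clusters and 186 CPM in 12 clusters not called. Ranges of both main classes overlap almost wholly. Among single members, the medians in glutamatergic and GABAergic clusters were furthest apart, as a ratio, for *Hoxd4*, at 8.87 and 13.8 CPM, and for *Hoxa3*, at 24.6 and 34.0 CPM. *Hoxc4* had 38.4 and 43.3 CPM and *Hoxb6* 4.68 and 4.50 CPM. The ranges over clusters overlap for each of the 10 members.

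The comparison of the groups asks whether activating AgRP neurons and inhibiting POMC neurons for 1 h was accompanied by other Hox levels. No member passed the test. With edgeR's quasi-likelihood test over 12115 genes in neurons, 0 of 10 members had an adjusted p under 0.05, as did 0% of all genes, and 2 of 10 had an unadjusted p under 0.05 against 5.51% of genes. DESeq2 called 0 members as well, against 0.0825% of genes, with 3 at an unadjusted p under 0.05, against 3.79% of genes. *Hoxc4* had means of 36.3 ± 1.54 and 47.05 ± 13.6 CPM in control and AgRP-Gq;POMC-Gi libraries (SD over 2 libraries), a log2 fold change of 0.42 (SE 0.15, edgeR adjusted p = 0.810). It was the only 1 of 10 whose groups did not overlap, and its AgRP-Gq;POMC-Gi libraries were above. Of all genes, 10.4% lay above in this way and 27.7% lay below. The control 2 and AgRP-Gq;POMC-Gi 1 values of *Hoxc4* were 37.4 CPM both. The log2 fold change was 0.54 (SE 0.21) for *Hoxb4* and 0.81 (SE 0.39) for *Hoxb6*, both with an edgeR adjusted p of 0.810 and with overlapping groups. *Hoxd3* and *Hoxd4* stood at -0.05 and -0.07. The median of the 10 was 0.37, against -0.0003 over all genes.
These values moved with single libraries. Without AgRP-Gq;POMC-Gi replicate 2 the log2 fold change was 0.16 for *Hoxc4*, 0.14 for *Hoxb4*, 0.11 for *Hoxb6* and -0.03 for *Hoxb5*. Without AgRP-Gq;POMC-Gi replicate 1, edgeR called *Hoxb5* (0.98, adjusted p = 0.0167), *Hoxb4* (0.84, adjusted p = 0.0167) and *Hoxc4* (0.65, adjusted p = 0.0218), 3 of 10 members against 0.239% of genes. The library left in that group is then the one that stood apart, and the spread comes from the control libraries alone.

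In astrocytes 0 of 5 members tested passed, against 0.626% of 8462 genes, and 3 of 5 had an unadjusted p under 0.05, against 10.3% of genes. *Hoxc4* stood at 27.3, 29.3, 36.1 and 60.4 CPM, a log2 fold change of 0.81 (SE 0.19, edgeR adjusted p = 0.0884). *Hoxd3* stood at 14.9, 17.3, 23.9 and 28.7 CPM, a log2 fold change of 0.75 (SE 0.18, edgeR adjusted p = 0.0996). For these and for *Hoxb3* both AgRP-Gq;POMC-Gi libraries were above both control libraries, 3 of 5 members against 15.2% of genes, though *Hoxb3* spanned only 22.3 to 24.3 CPM. With genes in at least 1% of nuclei, a limit chosen after seeing the data, *Hoxd4* in astrocytes stood at 7.79, 8.77, 13.4 and 22.3 CPM (1.16, SE 0.25, edgeR adjusted p = 0.0712), and 0 of 11 members passed, against 0.419% of genes. An unadjusted p under 0.05 was reached by 7 of 11, against 8.92% of genes. In neurons 0 of 14 passed at that limit, against 0.00608%, and 3 of 14 had an unadjusted p under 0.05, against 5.72%. No member met the 5% limit in oligodendrocytes. At 1% of nuclei 0 of 6 passed there, against 0.191% of genes, and 3 of 6 had an unadjusted p under 0.05, against 8.33%. Mural, ependymal and tanycyte-like cells had 2, 4 and 9 members tested and 0 called, against 0.437%, 0% and 0% of genes. An unadjusted p under 0.05 was reached by 0 of these members, against 6.69%, 4.02% and 6.1% of genes.
Whether the group effect differed between types was tested as an interaction. In neurons and astrocytes together, with genes in at least 5% of nuclei of both, 0 of 5 members were called for astrocytes minus neurons, against 0.203% of genes, and *Hoxd3* came closest (0.79, SE 0.18, edgeR adjusted p = 0.163). With genes in at least 1% of nuclei of neurons, astrocytes and oligodendrocytes, 1 of 6 was called for astrocytes minus neurons (*Hoxd4*, 1.22, SE 0.20, edgeR adjusted p = 0.0424, against 0.156% of genes), and 0 of 6 for oligodendrocytes minus neurons, against 0.672% of genes. Both fits were chosen after seeing the data.

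**Figure D5:**
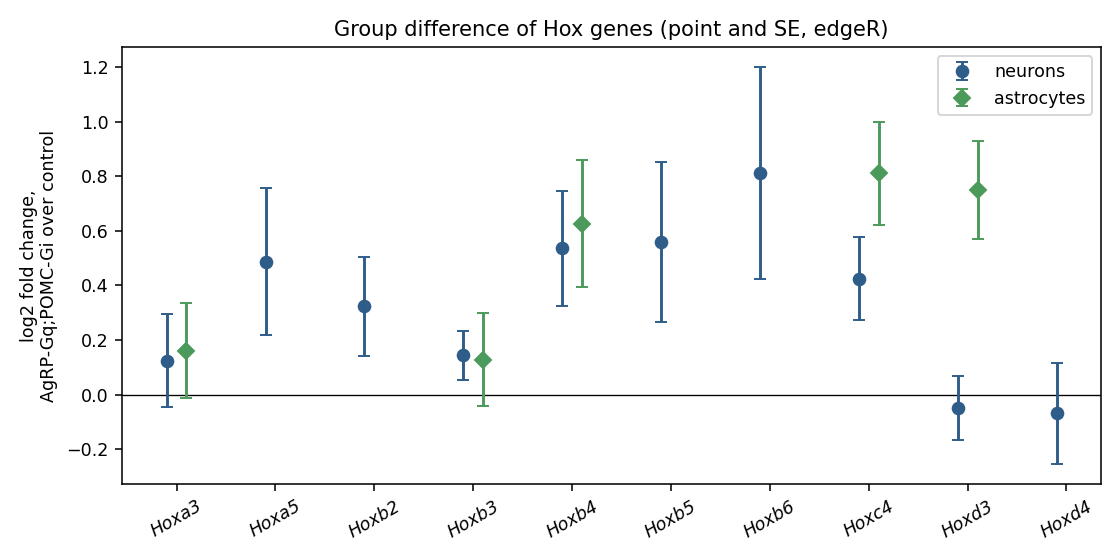
Log2 fold change of AgRP-Gq;POMC-Gi over control (edgeR, point and standard error) for the 10 members in neurons and for the 5 tested in astrocytes, with a line at 0. No point passed an adjusted p of 0.05, and *Hoxb6* in neurons has the widest bar (0.81, SE 0.39).

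In single neuronal clusters, 1107 pairs of member and cluster were tested in 120 clusters, and 0 were called, against 0.0385% of all pairs of gene and cluster. An unadjusted edgeR p under 0.05 was reached by 45 pairs (4.07%), against 4.52% of all pairs, with AgRP-Gq;POMC-Gi higher in 35 and lower in 10. The split over all pairs is not given here, and the pairs share the library that stood apart. The split by direction is therefore not read as a finding. The smallest p was that of *Hoxb6* in cluster 64: Ebf3/Pax2, with 3, 1, 13 and 15 UMIs in the 4 libraries (log2 fold change 2.14, edgeR adjusted p = 0.552). The share of small p-values was thus near that of all genes. In simulated data for cluster 63, 1% of genes changed by 2 times were recovered. The lack of calls in clusters therefore says little about changes of that size.

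The genes known to work with Hox proteins were read from the same fit. In it 0% of all 12115 genes passed, 5.51% had an unadjusted edgeR p under 0.05, and the median log2 fold change was -0.0003. Of 9 Pbx, Meis and Pknox genes, which encode cofactors, 9 were tested and 0 passed, with a median log2 fold change of 0.05. An unadjusted p under 0.05 was reached by 1 of the 9. *Meis2* stood at 353 ± 34.3 CPM in neurons and 359 CPM in astrocytes. Of 19 segmentation and retinoic acid genes, 5 were tested, 0 passed and 1 had an unadjusted p under 0.05, with a median of 0.06. *Rarb*, a retinoic acid receptor gene, gave the most UMIs of this list. It stood at 66.6, 69.2, 103 and 107 CPM, with a log2 fold change of 0.69 (SE 0.07, edgeR adjusted p = 0.180). Here both AgRP-Gq;POMC-Gi libraries lay together and apart from both control libraries, unlike the Hox members. Of 19 Polycomb and trithorax genes, 17 were tested, 0 passed and 1 had an unadjusted p under 0.05, with a median of 0.03. *Kmt2a* stood at 235 ± 6.51 CPM and *Ring1* at 113 ± 9.03 CPM. Of 7 genes of territories in front of the Hox domain, 0 met the limit, and most of their UMIs came from *Pax5* (2.77 ± 0.270 CPM) and *En1* (0.633 ± 0.202 CPM).

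Noncoding transcripts of the Hox loci were also measured. In neurons *Gm11536*, a transcript of the Hoxb locus, stood at 44.0 ± 6.33 CPM, and *Hotairm1*, of the Hoxa locus, at 21.9 ± 4.15 CPM. Of 18 such transcripts, *Hoxb3os* stood at 18.9 ± 1.65 CPM in neurons and 235 CPM in astrocytes, and *Haglr* at 3.94 CPM in neurons and 37.5 CPM in oligodendrocytes, 2 that were picked after their values were seen. Counting by strand is not given in the sources used here, so reads of a gene and its antisense partner may not be told apart.
Of 16444 genes outside the family, the 10 whose level over 133 clusters was most like the summed level of groups 4 to 8 were *Hoxb5os* (r = 0.752), *Gm11536* (0.746), *Skap2* (0.659), *Hoxaas3* (0.611), *Hotairm1* (0.603), *Pds5b* (0.564), *Gm48228* (0.523), *Ddx3y* (0.515), *Hoxaas2* (0.496) and *Ppp1r12a* (0.487). Of these, 5 are noncoding transcripts of the Hox loci. *Ddx3y* is also highest in AgRP-Gq;POMC-Gi replicate 2, and the clusters share that library.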

How the data were processed

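Nuclei of the posterior hindbrain were sorted by DNA stain and sequenced with the 10x Genomics 3′ kit by the authors. The deposited counts are UMIs per gene and barcode, which the authors made with Cell Ranger 7.0.0 on GRCm38. They kept barcodes of at least 800 UMIs, 500 genes and at most 10% mitochondrial UMIs, removed doublets, clustered the nuclei with Seurat 4.3.0 on a learned embedding and annotated the clusters. The percent of mitochondrial UMIs per barcode was deposited by the authors and used only for their filter. Their keep flag, clusters and annotation were used as deposited. A merged matrix of all libraries was not used.

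Here UMIs were summed per library and cell type or cluster (Python 3.11.15, numpy 2.4.6, pandas 2.3.3, scipy 1.17.1, matplotlib 3.10.9). Groups were compared with the quasi-likelihood test of edgeR 4.0.16 (R 4.3.3) with TMM factors on genes seen in at least 5% of nuclei, and p-values were adjusted by Benjamini-Hochberg over all genes of a fit. DESeq2 1.42.0, other filters and scalings, a replicate block and leaving out each library served as alternatives. Recovery was looked at in simulated data with planted changes, where noise was drawn for each gene on its own. No shift of a single library shared by Hox genes was put in, so the shares may not hold for Hox genes. With 12115 genes in neurons, 64% of genes changed by 1.5 times and 97.5% of those changed by 2 times were recovered. In astrocytes, with 8462 genes, these shares were 19% and 91%. In cluster 63, with 10613 genes, they were 0.5% and 1%, and 44.5% of genes changed by 4 times were recovered. Exact intervals (95%) and the limit for a count of 0 (3 counts) cover counting error only. Values of Hox genes were given per library for members in at least 5% of neurons, and by range or count for others. Clusters were named where a member had its 3 highest means, where the highest paralogue group was found and where the study discusses them. Outside the family, the 10 genes of most similar pattern and the 1 or 2 highest members of each list were named. The members and lists were chosen with earlier results of these data known. Of the features, 32235 of 32285 were found in GENCODE M21. Some members, clusters and sequences are not reported here.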

Additional observations from a re-analysis of the deposited data

Results flagged for a closer look

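With genes in at least 1% of the nuclei of neurons, astrocytes and oligodendrocytes, a limit chosen after seeing the data, the group effect on *Hoxd4* differed between astrocytes and neurons by 1.22 on the log2 scale (SE 0.20, edgeR quasi-likelihood test, adjusted p = 0.0424). It was called because the test of this difference passed its threshold. In astrocytes *Hoxd4* stood at 7.79 and 8.77 CPM in controls, and the AgRP-Gq;POMC-Gi replicates had 13.4 and 22.3 CPM. In neurons the values were 13.7 and 12.4 CPM against 9.39 and 14.7 CPM, so the groups overlapped there. *Hoxd4* lies within the annotated body of *Hoxd3*, and reads of both may be split between them. Neither single effect passed its own test, and *Hoxd4* was not among the genes tested at the 5% limit in astrocytes.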

How the results depend on the processing

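Detection in clusters depended on the threshold and on depth. Pairs of gene and cluster numbered 436 with nuclei thinned to 2000 UMIs, against 960. Clusters with a gene of groups 6 to 8 numbered 27 at 10% of nuclei and 20 CPM and 15 after thinning, against 44. Clusters with no detected gene numbered 7 at the stricter threshold, 16 after thinning and 1 among clusters of at least 50 nuclei, against 4. At the stricter threshold, clusters of groups 6 to 8 held 18.2% of neurons, against 30.9%. The ratio of neurons to oligodendrocytes was 6.95 with log-normalized values and 4.68 with nuclei thinned to 800 UMIs, against 4.26. In neurons, genes with an adjusted p under 0.05 numbered 10 with DESeq2, 1 with no filter and 1 with filterByExpr, none of them Hox genes, and 0 in edgeR. With each library left out in turn they numbered 3 to 2017, the last without AgRP-Gq;POMC-Gi replicate 2, and Hox genes among them 0 to 3. Leaving out a library, log2 fold changes ran from -0.20 to 0.090 for *Hoxd3*, -0.36 to 0.17 for *Hoxd4*, -0.18 to 0.38 for *Hoxa3* and -0.035 to 0.98 for *Hoxb5*. With equal weight per cluster *Hoxa3*, *Hoxa5* and *Hoxb3* stood at -0.035, -0.010 and -0.069. The cause was not tested. Pairs of Hox gene and cell type that were called numbered 0 to 4 of 30 with a library left out, against 0.201 to 2.79% of all pairs of gene and type. They numbered 4 without AgRP-Gq;POMC-Gi replicate 1 (0.439% of all pairs) and 1 without control replicate 2 (0.321%), and *Hoxd4* was the 1 Hox gene called for astrocytes minus neurons at 1% of nuclei. Without TMM factors the median of all genes in neurons was -0.06. The difference between types was not fitted with other scalings or with a library left out. The call of *Hoxd4* was thus not checked without AgRP-Gq;POMC-Gi replicate 2. In the planned fit, with genes in at least 5% of nuclei of neurons, oligodendrocytes and astrocytes each, no member passed the filter. Pairs called in single clusters stayed at 0 throughout. Replicate numbers are shared by both groups, but nothing in the labels says that they mark a pair, and the correlation of deviations of same-numbered libraries was 0.18 over only 2 pairs. With the replicate number as a block, 169 of 12115 genes were called in neurons, 3 of them Hox genes (*Hoxb6* 0.74, *Hoxb4* 0.50 and *Hoxc4* 0.41), and 6 of 30 pairs of Hox gene and type, against 0.914% of all pairs. Low counts limit members outside the 10 that were followed, and single members within clusters.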
